A study of Homo sapiens with 6 samples.

Results

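The growth factor genes PDGFA, PDGFB, PDGFC, VEGFA, VEGFB, VEGFC and FGF2 were examined together with PDGFRB, which encodes a PDGF receptor, and NRP1, which encodes neuropilin 1. They were chosen by name, with earlier results of these data known, as signals that epithelial cells can send to fibroblasts and vessels. Each of the 9 genes had 1 entry among the 25737 entries of the count files. The measured cells were A549, an established epithelial line from a lung carcinoma, and BEAS-2B, which is a bronchial epithelial line kept in culture by immortalization, both given the genotype WT. Each line was kept in RPMI medium and was either left without treatment or given TGF-β1, a cytokine of the TGF-β family, at 1 or 5 ng/mL for 48 h. The treated cells received TGF-β1 in medium with 1% fetal bovine serum, while the labels do not give the medium of the control cells during these 48 h. Every condition was measured in 1 library. No difference could be checked against replicates, the spread among cultures is not known, and no test was run. The 95% intervals given here cover the counting of reads only, and the reads carry no molecular identifiers.

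PDGF and VEGF are secreted dimers that belong to a common family. PDGF ligands bind receptor tyrosine kinases that are mainly carried by fibroblasts, smooth muscle cells and pericytes, whereas VEGF ligands bind receptors of blood and lymph vessel endothelium. FGF2 signals through FGF receptors with heparan sulfate chains as partners, and neuropilin 1 is a co-receptor that binds forms of VEGF as well as class 3 semaphorins. In the lung, epithelial VEGF helps to maintain the capillaries and epithelial PDGF-A acts on the precursors of myofibroblasts.

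The family resemblance of the ligands can be read in a conserved stretch that holds 4 cysteine codons, printed in capitals in the coding bases below. These stretches of 39 bases were read from GENCODE transcripts (GRCh38) and each lay within a coding exon, at chr7:510863-510901 on the minus strand for PDGFA, chr22:39231676-39231714 on the minus strand for PDGFB, chr6:43777573-43777611 on the plus strand for VEGFA, chr11:64235917-64235955 on the plus strand for VEGFB and chr4:176727832-176727870 on the minus strand for VEGFC.
PDGFA: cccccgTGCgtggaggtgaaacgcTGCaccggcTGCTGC
PDGFB: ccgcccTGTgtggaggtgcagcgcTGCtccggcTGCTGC
VEGFA: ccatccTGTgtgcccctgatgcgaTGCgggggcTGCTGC
VEGFB: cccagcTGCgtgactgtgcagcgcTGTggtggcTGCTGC
VEGFC: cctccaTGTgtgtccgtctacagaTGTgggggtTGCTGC
PDGFA and PDGFB shared 33 of the 39 bases, while VEGFA shared 27 with PDGFB, with VEGFB and with VEGFC. The pattern searched was not found in the 2 coding transcripts of PDGFC, whose product belongs to the later described branch of PDGF ligands with an added CUB domain. The stretches are shown so that the ligands whose counts follow can be read as members of a family.

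The libraries held 4120624 to 7841350 counts, the most in A549 cells at 1 ng/mL. Raw counts given below are not adjusted for this. Counts were scaled with TMM factors to a common library size, and ND, the normalized data value, is log2 of the scaled count plus 1. A gene was called when its scaled counts differed at least 2-fold and its ND was at least 7, which is 127 scaled counts, in at least 1 of the libraries compared. A gene that reached this minimum in only 1 library of a pair compared could only be called higher in that library. The verbs rose and fell are kept for called genes. In bulk RNA, a smaller share of cells with a transcript and less of it per cell cannot be told apart. Levels are compared between libraries for the same gene and never between genes.

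At 5 ng/mL TGF-β1, PDGFA, PDGFB, PDGFC and VEGFA rose in both cell lines. These were 4 of 9 members in each line, beside 16.1% of all entries that reached the minimum in A549 and 7.33% in BEAS-2B cells. No member was called lower at this dose (0 of 9 in each line), where 17.1% of the entries were called lower in A549 and 11.6% in BEAS-2B cells. The median log2 fold change was 0.82 over the 8 members with counts in both A549 libraries. In BEAS-2B cells it was 0.61 over the 9 members. Both include members below the minimum, whereas the medians beside them, 0.11 and 0.03, are over all entries that reached it. In each line 7 of the 9 members reached the minimum. Here and below, shares of entries or of all entries are over those that reached the minimum, while members are counted out of all 9. When ND was taken as log2(CPM + 1), the calls of PDGFC and VEGFA were lost in A549 cells and that of PDGFB in BEAS-2B cells, and with the minimum in every library compared those of PDGFB and PDGFC were lost in A549 cells and that of PDGFB in BEAS-2B cells.

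**Figure D1:**
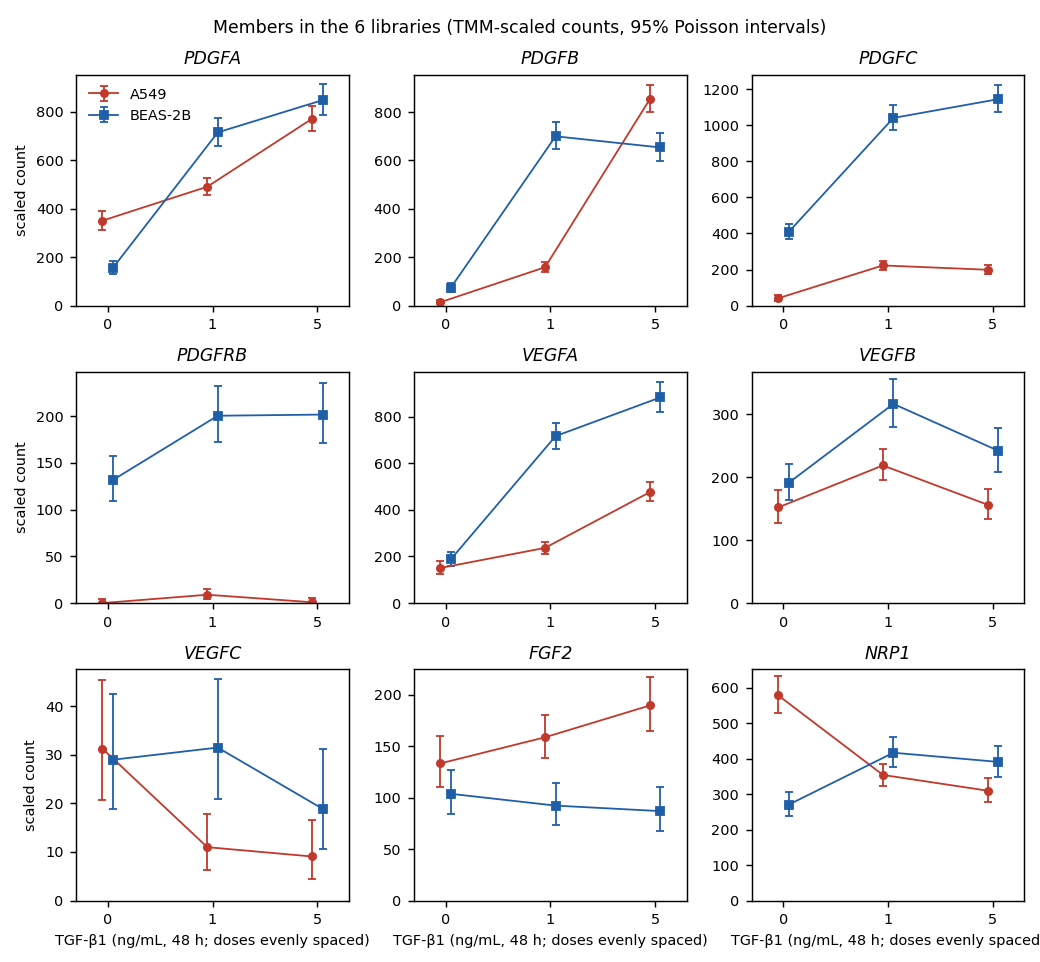
Scaled counts of the 9 members (y axis, a separate range from 0 for each gene) at 0, 1 and 5 ng/mL TGF-β1 (x axis, doses evenly spaced) in A549 cells (red circles) and BEAS-2B cells (blue squares), with 95% Poisson intervals for 1 library per point. PDGFA, PDGFB, PDGFC and VEGFA are above their control in all treated libraries, and NRP1 is below it in A549 cells but above it in BEAS-2B cells.

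PDGFB encodes the B chain of PDGF, the ligand that draws pericytes to growing vessels. The A549 libraries held 13.9 scaled counts without treatment, 159 at 1 ng/mL and 854 at 5 ng/mL, and the BEAS-2B libraries held 73.6, 700 and 654. In A549 cells the level climbed at each dose, whereas in BEAS-2B cells both treated libraries lay close together and far above the control. The rise at 5 ng/mL was 61.4-fold in A549 cells (interval 35.0 to 119) and 8.88-fold in BEAS-2B cells (6.86 to 11.7). The wide A549 interval rests on 12 raw counts in the control library. By fold change, PDGFB stood at place 13 of 7115 entries in A549 cells and at place 42 of 6735 in BEAS-2B cells.

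PDGFA encodes the A chain, which signals to fibroblast precursors. The A549 libraries at 0, 1 and 5 ng/mL held 351, 491 and 772 scaled counts of PDGFA, and the BEAS-2B libraries held 156, 716 and 849. BEAS-2B cells began lower and reached the level of treated A549 cells, as the libraries at 5 ng/mL differed 1.10-fold with an interval that held 1 (0.992 to 1.22). The rise at 5 ng/mL was 2.20-fold in A549 cells (1.93 to 2.52) and 5.44-fold in BEAS-2B cells (4.53 to 6.57). The A549 value lay near the limit of 2 and was below it when libraries were scaled by total counts alone, with a log2 fold change of 0.93.

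PDGFC, whose product must be cut by proteases before it binds its receptor, differed between the lines at every dose. Its scaled counts were 40.6, 223 and 199 in A549 cells, and 407, 1040 and 1144 in BEAS-2B cells. Every BEAS-2B library, the control included, was above every A549 library. PDGFC rose 4.90-fold in A549 cells at 5 ng/mL (3.42 to 7.22) and 2.81-fold in BEAS-2B cells (2.49 to 3.18). The rise at 1 ng/mL was 5.49-fold in A549 cells (3.87 to 8.02) and 2.55-fold in BEAS-2B cells (2.26 to 2.89).

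VEGFA encodes the main growth factor of vascular endothelium. The scaled counts of VEGFA were 151, 237 and 476 in A549 and 187, 717 and 883 in BEAS-2B cells. The controls of the lines differed 1.24-fold with an interval that held 1 (0.984 to 1.58), and after treatment the BEAS-2B libraries were higher at each dose. VEGFA rose 3.16-fold in A549 cells at 5 ng/mL (2.61 to 3.86) and 4.71-fold in BEAS-2B cells (3.98 to 5.61). Part of the VEGFA exons, 188 of 14431 bases, overlaps an antisense gene in the GENCODE annotation, and whether counting used strand was not given.

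VEGFB, a ligand linked to fatty acid uptake and vessel survival, was not called at either dose. Its scaled counts were 152, 218 and 156 in A549 and 191, 316 and 242 in BEAS-2B cells. The library at 1 ng/mL was the highest in each line, 1.44-fold above control in A549 cells (1.17 to 1.78) and 1.66-fold in BEAS-2B cells (1.37 to 2.02). At 5 ng/mL the ratio to control was 1.03 in A549 cells with an interval that held 1 (0.814 to 1.30), and 1.27 in BEAS-2B cells (1.03 to 1.57).

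VEGFC, the growth factor of lymphatic vessels, stayed below the minimum in all 6 libraries. It had 27, 16 and 10 raw counts in A549 and 26, 28 and 15 in BEAS-2B cells. The scaled count was 3.45-fold lower at 5 ng/mL than in the control in A549 cells (1.62 to 7.98) and 2.85-fold lower at 1 ng/mL (1.48 to 5.65). In BEAS-2B cells both intervals held 1, so that no difference was detectable at this depth.

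FGF2, a growth factor of fibroblasts and endothelium that leaves the cell without a signal peptide, was not called at either dose in either line. In BEAS-2B cells FGF2 was below the minimum in every library, so that it could not be called there. Its scaled counts were 133, 159 and 190 in A549 and 104, 92.3 and 86.9 in BEAS-2B cells. All A549 libraries were above all BEAS-2B libraries, although neighbours in this order of levels each had an interval that held 1. At 5 ng/mL the ratio to control was 1.42 in A549 cells (1.13 to 1.80) and 0.838 in BEAS-2B cells, where the interval held 1 (0.605 to 1.16). FGF2 shares 804 of its 6775 exonic bases with NUDT6 on the other strand, and NUDT6 had 47, 48 and 26 raw counts in A549 and 26, 8 and 7 in BEAS-2B cells. Reads from these shared bases could not be told apart without strand.

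PDGFRB encodes the beta receptor, which binds PDGF-B and marks pericytes and fibroblasts. It had 0, 13 and 1 raw counts in A549 and 118, 178 and 160 in BEAS-2B cells. The untreated BEAS-2B library was 37.9-fold above the 3 counts that a count of 0 allows in the untreated A549 library, and the exact interval of their ratio began at 30.3. Within BEAS-2B cells the ratio to control was 1.52 at 1 ng/mL (1.20 to 1.94) and 1.53 at 5 ng/mL (1.20 to 1.96), short of a call. The 13 counts in A549 cells at 1 ng/mL came with the highest fibroblast and pericyte marker sum of the A549 libraries, 141 raw counts against 19 in the control and 39 at 5 ng/mL. After scaling, the sum was 96.9 against 22.0 in the control and 35.4 at 5 ng/mL. The list of 6 markers includes PDGFRB itself. In the A549 library at 1 ng/mL DCN had 53, THY1 25, PDGFRA 22, LUM 15 and RGS5 13 raw counts. The part of these markers in the PDGFRB value was not tested.

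NRP1, the neuropilin co-receptor, lay on opposite sides of its control in the lines. The scaled counts of NRP1 were 578, 354 and 309 in A549 and 270, 416 and 390 in BEAS-2B cells. Both treated A549 libraries were below the A549 control, and both treated BEAS-2B libraries were above the BEAS-2B control. At 5 ng/mL the level was 1.87-fold lower than in the control in A549 cells (1.63 to 2.15) and 1.45-fold higher in BEAS-2B cells (1.22 to 1.72). Neither was called, although the A549 value passed the limit when libraries were scaled by total counts alone, with a log2 fold change of -1.10. In the annotation 561 of 11522 exonic bases of NRP1 overlap an antisense gene.

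**Figure D2:**
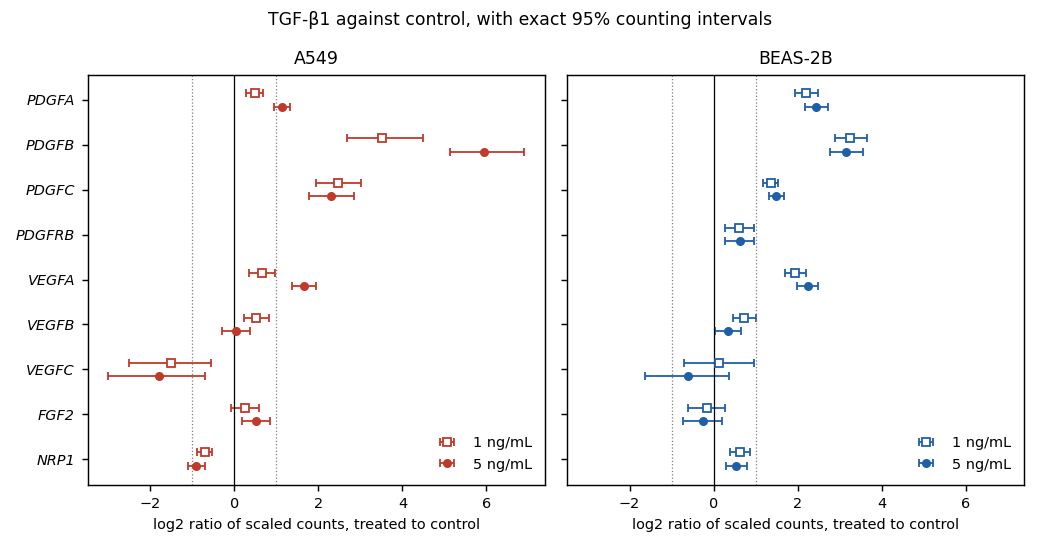
Log2 ratio of scaled counts to the control (x axis) for the 9 members (y axis) in A549 cells (left) and BEAS-2B cells (right) at 1 ng/mL (open squares) and 5 ng/mL (filled circles), with exact 95% counting intervals and dotted lines at a 2-fold difference. PDGFB reaches 61.4-fold in A549 cells at 5 ng/mL, and NRP1 is left of 0 in A549 cells and right of it in BEAS-2B cells. No ratio is drawn for PDGFRB in A549 cells, where the control had 0 counts.

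At 1 ng/mL, PDGFB and PDGFC rose in A549 cells, 2 of 9 members beside 10.9% of entries called higher. PDGFA at 1.40-fold (1.22 to 1.61) and VEGFA at 1.57-fold (1.28 to 1.94) were short of the limit there. In BEAS-2B cells PDGFA, PDGFB, PDGFC and VEGFA all rose at this dose, by 4.58-fold (3.81 to 5.54), 9.51-fold (7.37 to 12.4), 2.55-fold and 3.83-fold (3.22 to 4.56). These were 4 of 9 members beside 5.66% of entries. No member was called lower (0 of 9 in each line), where 12.6% of entries were called lower in A549 and 9.13% in BEAS-2B cells. The PDGFB and PDGFC calls in A549 cells at 1 ng/mL were lost when the ND minimum was 8 in place of 7, since both treated levels were between these limits.

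The step from 1 to 5 ng/mL was compared directly, as both doses share the control library of their line. In A549 cells PDGFB was 5.38-fold (4.65 to 6.24) and VEGFA 2.01-fold (1.75 to 2.31) higher at 5 than at 1 ng/mL, which made 2 of 9 members called beside 1.61% of entries. The VEGFA step lay at the limit and was lost with total count or quantile scaling, whereas PDGFA was 1.57-fold higher (1.42 to 1.74) without a call. In BEAS-2B cells 0 of 9 members were called higher beside 0.492% of entries. The ratios there were 0.934 for PDGFB with an interval that held 1 (0.830 to 1.05), 1.19 for PDGFA (1.06 to 1.32), 1.10 for PDGFC (1.00 to 1.21) and 1.23 for VEGFA (1.10 to 1.37). VEGFB went the other way in both lines, 1.40-fold lower at 5 than at 1 ng/mL in A549 cells (1.16 to 1.70) and 1.31-fold lower in BEAS-2B cells (1.08 to 1.58).

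The responses of the lines were then set against each other as a ratio of ratios. At 5 ng/mL, 3 of 9 members differed at least 2-fold in response beside 23.6% of entries. The rise of PDGFB was 6.92-fold larger in A549 cells (3.66 to 14.2), the rise of PDGFA was 2.47-fold larger in BEAS-2B cells (1.97 to 3.12), and the NRP1 ratio was 2.70-fold higher in BEAS-2B cells (2.16 to 3.38). The responses of VEGFA, 1.49-fold larger in BEAS-2B cells (1.14 to 1.94), and of PDGFC, 1.74-fold larger in A549 cells (1.19 to 2.62), were not called different. For VEGFB the interval held 1 (0.590 to 1.12, A549 to BEAS-2B). At 1 ng/mL 5 of 9 members differed beside 21.8% of entries, namely PDGFA, PDGFC, PDGFRB, VEGFA and NRP1. For PDGFRB this call rests on the pseudocount, since the A549 control had 0 counts and no ratio of ratios or interval could be had. PDGFB was not among the 5, with a ratio of 1.20 and an interval that held 1 (0.628 to 2.48). The VEGFA response at 1 ng/mL was 2.43-fold larger in BEAS-2B cells (1.85 to 3.19).

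Without TGF-β1, 4 of 9 members differed between the lines beside 37% of entries called in either direction. PDGFC was 10.0-fold higher in BEAS-2B cells (7.09 to 14.6) and PDGFRB was counted in BEAS-2B cells alone, while PDGFA was 2.25-fold (1.83 to 2.77) and NRP1 2.14-fold (1.83 to 2.51) lower there. PDGFB was 5.29-fold higher in BEAS-2B cells (2.84 to 10.8) but below the minimum in both controls. All 4 calls were lost when ND was taken as log2(CPM + 1), and those of PDGFC and PDGFRB were lost with the minimum in both libraries. For VEGFA, VEGFB, VEGFC and FGF2 the interval of the ratio held 1.

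The entries whose profile was most like that of each called ligand were found by the distance between log2 profiles over the 6 libraries, each centred on its own mean, among 8158 entries. For PDGFA these were DMTF1 at 0.504, SKIL, which encodes a SMAD corepressor, at 0.535 and TBC1D16 at 0.567, where the median distance of all entries was 2.40. For PDGFB they were the Wnt ligand gene WNT5B at 1.43, KANK4 at 1.49 and PLEK2 at 1.49, with a median of 5.25. For PDGFC they were ARSI at 0.651, TMEM45A at 0.676 and PFKFB4 at 0.681, with a median of 4.07. For VEGFA they were FHL3 at 0.746 and the transcription factor genes FOXD1 at 0.772 and TEAD2 at 0.774, with a median of 2.61. These distances describe only these 6 libraries, with 1 per condition.

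Among the partners of the ligands, NRP2, the other neuropilin, rose in both lines, with 1089, 2388 and 2880 raw counts in A549 and 63, 223 and 191 in BEAS-2B cells. The folds of NRP2 at 5 ng/mL were 2.07 (1.93 to 2.22) and 3.42 (2.56 to 4.63), so that NRP1 and NRP2 lay on opposite sides of their controls in A549 cells. At 1 ng/mL NRP2 was 1.30-fold above control in A549 cells (1.21 to 1.40), without a call. PGF, which encodes placental growth factor, rose 3.80-fold in BEAS-2B cells (2.60 to 5.67), from 36 to 121 raw counts. Of the 6 listed VEGF partners 1 of 1 that reached the minimum rose in A549 cells and 2 of 2 in BEAS-2B cells. Both NRP2 and PGF were below the minimum in the BEAS-2B control, so that they could only be called higher there. The endothelial VEGF receptor KDR had 0 counts in all 6 libraries, FLT1 at most 1, and FLT4 23, 52 and 63 in A549 and 0 in BEAS-2B cells. Among 3 further PDGF genes, PDGFRL, which encodes a PDGF receptor-like protein, fell 13.7-fold in A549 cells (8.07 to 25.1), from 161 to 15 raw counts. None reached the minimum in BEAS-2B cells, where PDGFRL had 58, 7 and 8 raw counts. The ligand gene PDGFD, below the minimum, had 59, 40 and 20 raw counts in A549 and 0 in BEAS-2B cells. Its scaled count was 3.77-fold lower at 5 ng/mL in A549 cells (2.24 to 6.61). PDGFRA had 8, 22 and 5 raw counts in A549 and 0 in BEAS-2B cells.

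The FGF system showed named changes outside FGF2. Of 14 other FGF genes listed, 0 reached the minimum in A549 and 2 in BEAS-2B cells, where both rose. FGF1, a ligand of all FGF receptors, went from 2 to 120 and 113 raw counts in BEAS-2B cells, 63.8-fold at 5 ng/mL with a wide interval (17.3 to 533). As FGF1 was below the minimum in the BEAS-2B control, it could only be called higher. FGF11 rose 2.05-fold in BEAS-2B cells (1.67 to 2.54). In A549 cells, below the minimum, FGF1 had 0, 18 and 38 raw counts and FGF11 had 7, 69 and 85. The FGF11 ratio to control at 5 ng/mL was 9.51 in A549 cells (4.42 to 24.4). FGFR1 rose 2.48-fold in A549 cells (2.28 to 2.70), from 714 to 2264 raw counts, and was not called in BEAS-2B cells at a ratio of 1.00 (0.876 to 1.15). FGFRL1, a receptor without a kinase domain, fell 2.04-fold in BEAS-2B cells (1.53 to 2.75), which made 1 called higher of 2 receptor and carrier genes in A549 cells and 1 called lower of 2 in BEAS-2B cells.

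Genes that carry or cut these ligands were called in both directions. Of 6 heparan sulfate carriers that reached the minimum in A549 cells, SDC1, SDC4 and HSPG2 rose and 0 fell, with a median log2 fold change of 1.16. In BEAS-2B cells SDC1 rose and SDC4 fell among 6, with a median of -0.24. SDC4, the syndecan 4 gene, had 228, 746 and 805 raw counts in A549 and 3274, 1003 and 847 in BEAS-2B cells. FURIN, a protease that matures VEGFC and the PDGF chains, rose 3.26-fold in A549 cells (2.87 to 3.71) and 2.06-fold in BEAS-2B cells (1.76 to 2.43). PLAU, the urokinase gene, fell in both lines, with 246, 61 and 21 raw counts in A549 cells against 316, 17 and 21 in BEAS-2B cells. CCBE1, needed for VEGF-C activation, rose 16.8-fold in A549 cells (10.5 to 28.6) while PCSK5 fell 2.60-fold (1.89 to 3.60). Processing enzymes thus counted 2 higher and 2 lower of 4 in A549 cells, and 1 higher and 1 lower of 3 in BEAS-2B cells. In A549 cells CCBE1 was below the minimum in the control and could only be called higher. PLAU and PCSK5 were below it at 5 ng/mL there and could only be called lower.

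**Figure D3:**
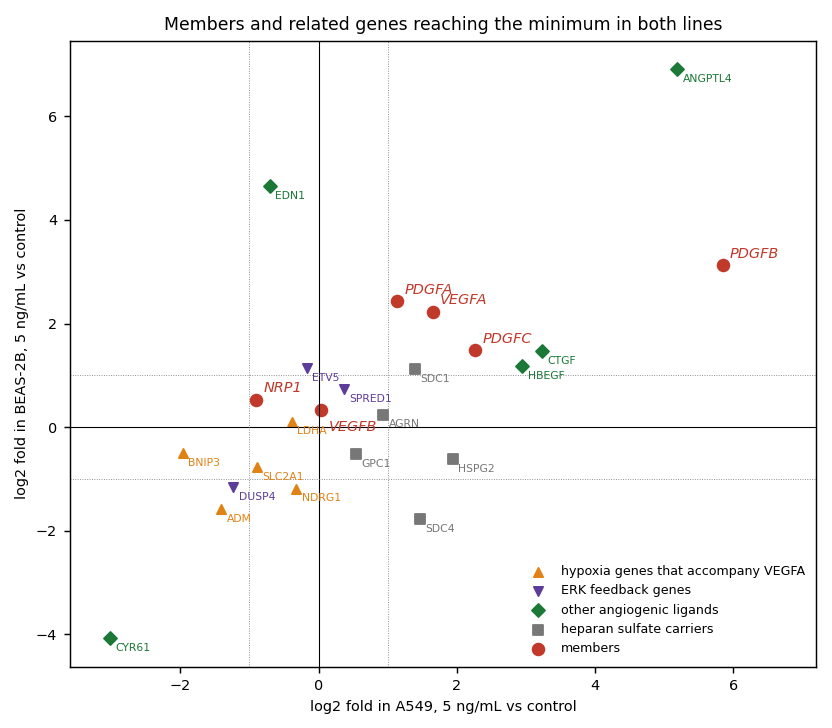
Log2 fold change at 5 ng/mL TGF-β1 against control in A549 cells (x axis) and BEAS-2B cells (y axis) for members (red circles) and genes of 4 related lists that reached the minimum in both lines, 1 library per condition, with dotted lines at a 2-fold difference. PDGFA, PDGFB, PDGFC and VEGFA lie in the upper right with ANGPTL4, CTGF and HBEGF, while CYR61 lies in the lower left and the hypoxia genes lie at or below 0.11 in both lines.

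Feedback genes of the ERK pathway, through which PDGF, VEGF and FGF receptors signal, were among the called genes of both lines. In A549 cells DUSP4, DUSP5 and DUSP6, which encode phosphatases of MAP kinases, fell by 1.24, 1.84 and 3.02 on the log2 scale among 6 genes that reached the minimum, and 0 rose. In BEAS-2B cells DUSP4 fell by 1.16 and ETV5 rose by 1.14 on the same scale among 3. The median log2 fold change was -0.70 over the 6 genes in A549 cells. In BEAS-2B cells it was 0.73, the value of SPRED1, over 3 genes that do not include DUSP5 and DUSP6. Below the minimum in BEAS-2B cells at 5 ng/mL, DUSP5 was 3.39-fold (1.96 to 6.16) and DUSP6 2.82-fold (1.58 to 5.30) lower. Also below it, ETV4 was 5.54-fold (2.87 to 11.8) and SPRY4 3.39-fold (1.03 to 14.4) higher. DUSP6 had 184, 80 and 28 raw counts in A549 cells and, below the minimum, 51, 21 and 16 in BEAS-2B cells. Of the neuropilin ligands and plexins, SEMA3C rose 4.74-fold in A549 cells (4.19 to 5.38), 1 of 3 genes, and 0 of 4 were called in BEAS-2B cells.

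Genes that accompany VEGFA under low oxygen were counted as well. Of 5 that reached the minimum in A549 cells 0 were called higher and 2 lower, beside 16.1% and 17.1% of all entries, and ADM, which encodes adrenomedullin, and BNIP3 fell 2.67-fold (2.24 to 3.18) and 3.92-fold (3.22 to 4.80). Of 6 in BEAS-2B cells 0 were called higher and 2 lower, beside 7.33% and 11.6% of all entries, and ADM and NDRG1 fell 2.99-fold (2.55 to 3.53) and 2.28-fold (2.13 to 2.44). The median log2 fold change was -0.90 and -0.64. CA9, which encodes a carbonic anhydrase, was below the minimum with 71, 0 and 0 raw counts in A549 and 39, 3 and 0 in BEAS-2B cells. ANKRD37, also below it, went the other way in A549 cells with 6, 34 and 33 raw counts, 4.31-fold higher at 5 ng/mL (1.78 to 12.6), and had 61, 66 and 52 in BEAS-2B cells.

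Other secreted angiogenic factors were called in both directions. ANGPTL4, the angiopoietin-like 4 gene, had 135, 1282 and 6322 raw counts in A549 and 12, 1296 and 1374 in BEAS-2B cells, and so climbed with dose in A549 cells and was near level between doses in BEAS-2B cells. CTGF rose 9.49-fold (7.46 to 12.2) and 2.78-fold (2.49 to 3.10), and HBEGF rose 8.09-fold (4.76 to 14.8) and 2.28-fold (1.91 to 2.71), in A549 and BEAS-2B cells. EDN1, the endothelin 1 gene, rose 29.4-fold in BEAS-2B cells (12.3 to 91.9), from 5 to 130 raw counts, and was 1.64-fold lower in A549 cells (1.49 to 1.80) without a call. CYR61 fell in both lines, with 120, 71 and 18 raw counts in A549 cells against 1629, 163 and 85 in BEAS-2B cells. The list counted 3 higher and 1 lower of 5 in A549 cells, and 4 higher and 1 lower of 5 in BEAS-2B cells. HBEGF in A549 cells and ANGPTL4 and EDN1 in BEAS-2B cells were below the minimum in the control and could only be called higher. CYR61 was below it at 5 ng/mL in both lines and could only be called lower. For this and the other related lists, the shares of all entries called at 5 ng/mL were 16.1% higher and 17.1% lower in A549 cells, and 7.33% higher and 11.6% lower in BEAS-2B cells.

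The labels of the lines were checked against markers. The summed counts of AKR1B10, ALDH1A1 and AKR1C1, which are abundant in A549 cells, were 7950 to 25216 in the A549 libraries and 0 to 7 in the BEAS-2B libraries. Most of the sum at 1 and 5 ng/mL came from ALDH1A1, with 15076, 18278 and 7791 raw counts in A549 cells, or 17467, 12558 and 7069 scaled counts. AKR1B10 had 5482, 398 and 82 raw counts there and AKR1C1 4658, 363 and 77. Their scaled sum of 29215, 13081 and 7213 was lower in both treated A549 libraries. PDGFB and PDGFC rose in both of these, and PDGFA and VEGFA only at 5 ng/mL. The part of this sum in those values was not tested. KRT8 and KRT18 were counted in all libraries, but the BEAS-2B libraries held 0 counts of EPCAM and at most 2 of CDH1. The scaled sum of the 5 epithelial markers was 24834, 11182 and 10461 in A549 and 2050, 1042 and 1262 in BEAS-2B cells, lower in the treated libraries of each line. PDGFA, PDGFB, PDGFC and VEGFA rose in these libraries, except PDGFA and VEGFA in A549 cells at 1 ng/mL. The part of the epithelial sum in those values was not tested. Of the alveolar markers, SFTPC and SFTPA1 were at 0 throughout, SFTPB had at most 2 counts and NKX2-1 at most 8. ABCA3 had 72, 255 and 194 counts in A549 cells, a rise of 2.11-fold at 5 ng/mL (1.60 to 2.81), and 23, 5 and 3 in BEAS-2B cells. Of the airway basal markers, KRT14 was at 0, KRT5 had at most 1 count, TP63 had 8, 5 and 3 counts in A549 and 0 in BEAS-2B cells, and NGFR had 0, 15 and 6 in A549 cells and at most 2 in BEAS-2B cells. Endothelial markers summed to 0 to 4 counts with CDH5, VWF and KDR at 0. Of the leukocyte markers CD3E was at 0, PTPRC had at most 4 counts, and CD68 had 51, 73 and 52 counts in A549 and 24, 14 and 4 in BEAS-2B cells. The scaled counts of CD68 were 59.1, 50.2 and 47.2 in A549 and 26.8, 15.8 and 5.04 in BEAS-2B cells. THY1, a fibroblast marker, had 1160 to 1410 counts in the BEAS-2B libraries, where PDGFRB was also counted. Of the same marker list, PDGFRA was at 0 there, DCN had 4, 0 and 4 counts, LUM 0, 0 and 2, and RGS5 3, 1 and 11.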

How the data were processed

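3′-mRNA libraries from total RNA (QuantSeq kit) of 6 conditions were analysed, with 1 library per condition assigned from its labels. The values the authors deposited are raw read counts per gene symbol, without normalization. The submitters' processing notes name Bowtie2, bedtools and the hg19 build, and the methods name ExDEGA. Versions, filters and strand use are not given in the sources used here.

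Counts of all entries in all 6 libraries were scaled with TMM factors (edgeR 4.0.16, R 4.3.3) to the mean effective size. Calls follow the criteria of the study, a fold of at least 2 (pseudocount 1) and ND of at least 7. Ratios carry exact 95% Clopper-Pearson intervals, levels exact Poisson intervals, and ratios of ratios exact conditional intervals (scipy 1.17.1). A count of 0 was taken as at most 3 counts. Calls and ratio intervals of the treated-to-control comparisons were tested on simulated Poisson counts, with the effective library sizes kept. The other steps were not simulated, and such counts carry no spread among cultures.

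The members and gene lists were chosen with earlier results of these data known. All 9 members are named. Of each list, genes called at 5 ng/mL in both lines and up to 4 more with the largest change are named, and other list genes given as values were chosen after seeing them. The 3 most similar profiles are given for each member called at 5 ng/mL.

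Coding sequences and overlaps came from GENCODE v29 (GRCh38), which is not the build of the counts. In 250 bases before the 4 PDGFA starts of the RefSeq promoter table (GRCh38.p14), searched on both strands, GGGCGG, the SP1 motif, matched 1 to 5 times per start and CAGAC, the SMAD core, 0 to 2 times. These motifs occur in 42.6% and 38.0% of all 35116 promoters. The AP-1 motif TGANTCA matched 0 times and occurs in 6.57% of promoters. The core of the hypoxia element, ACGTG, matched 0 times and occurs in 18.5%. The TATA motif TATAAA also matched 0 times and occurs in 10.7%. For 3 of the 4 starts no GENCODE transcript start lay within 50 bases and the strand of the sequence could not be checked, and some of the searched bases are annotated as 5′-UTR of another PDGFA transcript, so the matches are not all upstream of transcription. PDGFB, PDGFC and VEGFA had no entry in that table. Alternatives covered scaling (DESeq2 1.42.0 size factors, total counts, upper quartile, limma 3.58.1 quantiles, TMM variants), thinned libraries, pseudocounts, the ND minimum, the ND definition and the fold limit.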

Additional observations from a re-analysis of the deposited data

Results flagged for a closer look

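FGF2 and NRP1 lay on opposite sides of their controls in the cell lines at both doses, which is why they are listed here. The difference between the lines was not tested, as each condition had 1 library, and both doses share the control of their line. For FGF2 the log2 fold change was 0.25 at 1 ng/mL and 0.51 at 5 ng/mL in A549 cells, and -0.17 and -0.25 in BEAS-2B cells. The counting interval of the ratio held 1 for the BEAS-2B libraries at both doses and for A549 cells at 1 ng/mL. The FGF2 ratio of ratios, A549 to BEAS-2B, was 1.34 at 1 ng/mL with an interval that held 1 (0.907 to 1.98). At 5 ng/mL it was 1.70 (1.13 to 2.55), and neither was called different. For NRP1 the log2 fold change was -0.71 and -0.90 in A549 cells and 0.62 and 0.53 in BEAS-2B cells, and none of these intervals held 1.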

How the results depend on the processing

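Each count of called members was recomputed under up to 17 alternative settings, and 116 of 135 counts stayed within 1.5 times the reported count. In A549 cells, the 4 calls at 5 ng/mL became 2 with the ND minimum in every library compared (PDGFA and VEGFA) and 2 with log2(CPM + 1) as ND (PDGFA and PDGFB). The 2 calls at 1 ng/mL became 0 with the minimum in every library, 0 with an ND minimum of 8, 0 with log2(CPM + 1), 4 with no minimum and 4 at a fold limit of 1.5. The 2 calls between 5 and 1 ng/mL became 1 (PDGFB) with total counts, quantile normalization, a pseudocount of 5, thinned libraries, log2(CPM + 1) and a fold limit of 3. The 4 calls in BEAS-2B cells at 1 ng/mL became 7 at a fold limit of 1.5. The 4 calls between the untreated lines became 2 with the minimum in every library, 0 with log2(CPM + 1) and 2 at a fold limit of 3. The 3 differences in response at 5 ng/mL became 5 at a fold limit of 1.5 and 1 at a fold limit of 3. Of 196 recomputed fold changes of called members, 194 stayed within the counting interval of the reported ratio. The others were PDGFA in A549 cells at 5 ng/mL with total counts (log2 0.93) and PDGFRB between the untreated lines with a pseudocount of 5 (log2 4.77). For PDGFRB between the untreated lines that interval has no upper end, and its log2 values ran from 4.77 to 10.4. The causes were not tested.

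Scaling by total counts moved the median log2 fold change at 5 ng/mL of the entries that reached the minimum. The median became -0.14 in A549 cells, where it was 0.11, and -0.12 in BEAS-2B cells, where it was 0.03. This scaling gave 798 entries called higher and 1564 lower in A549 cells (1146 and 1220 with TMM), and 373 and 1013 in BEAS-2B cells (494 and 783 with TMM). TMM within each cell line gave no value between the lines. No paired analysis was possible because each condition had 1 library and the labels carry no shared replicate numbers, and for the same reason no replicate could be left out. Depth limits VEGFC in both lines, PDGFRB in A549 cells, FGF2 in BEAS-2B cells, PDGFB in both untreated lines and PDGFC in untreated A549 cells.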
